A study of Mus musculus with 8 samples.

Results

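AP-1 and immediate early genes were followed through 8 RNA-seq libraries of the embryonic mouse lung. The group holds 10 genes chosen by name, namely Jun, Junb, Jund, Fos, Fosb, Atf3, Egr1, Ier2, Zfp36 and Klf6, out of 23997 gene symbols in 24487 records. Each gene had 1 record in the deposited tables, and no other record overlapped it. On mm10 the JUN family lay at chr4:95049036-95052222 (Jun), chr8:84976909-84978748 (Junb) and chr8:70697739-70700616 (Jund), and the FOS family at chr12:85473901-85477270 (Fos) and chr7:19302696-19310045 (Fosb). The others lay at chr1:191170297-191183333 (Atf3), chr18:34861207-34864956 (Egr1), chr8:84661331-84662852 (Ier2), chr7:28376784-28379228 (Zfp36) and chr13:5861489-5870393 (Klf6). All libraries came from embryonic lung of strain C57BL/6 after tamoxifen-induced labelling for translating ribosome affinity purification (TRAP), which recovers mRNA from tagged ribosomes of chosen cells. In the TRAP libraries this was done by immunoprecipitation of the ribosomal protein L10. The titles carry the name of Sox9, a transcription factor gene of the growing epithelial tips. The labels give neither the driver of the tag nor the Sox9 allele. Wild-type lungs gave 1 TRAP and 1 whole lung library at embryonic day 14 (E14) and the same at E17. TRAP at E16 gave 2 libraries of wild-type lungs and 2 of Sox9-mutant lungs, whose titles also carry an unexplained E13. The series design calls the E14 reference a supernatant, while its label calls it whole lung homogenate, the name kept here.

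AP-1 is a transcription factor made of paired leucine zipper proteins. JUN proteins pair with each other or with FOS proteins, whereas FOS proteins need a JUN partner to bind DNA. Immediate early genes are transcribed within minutes of a growth factor or stress signal, without new protein synthesis, largely through ERK, JNK and p38 kinases acting on factors such as ELK1, SRF and CREB. Tissue handling and dissociation are also known to induce them.

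Each library's deposited bounds correspond to a depth of 9783770 to 21500500 fragments. Sox9 itself lay at 35.9 and 36.4 FPKM (fragments scaled by transcript length and library size) in the E16 wild type, and at 12.8 and 11.03 FPKM in the mutant. The 10 epithelial markers summed to between 2289 and 2836 FPKM in the 6 TRAP libraries, against 550 and 936 in whole lung, and none was listed at 0. No label ties a replicate to its own animal, so the p-values reflect the spread among these libraries alone, which may be technical. In bulk RNA, fewer cells of a type and less RNA per cell cannot be told apart.

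The 10 genes divided into an abundant and a scarce set. Jund, Ier2 and Jun were the highest 3 in each library, with means over the 8 libraries of 220, 82.6 and 73.3 FPKM. Zfp36, Junb and Klf6 averaged 11.4, 9.70 and 8.66 FPKM, Egr1 3.67, Atf3 1.76 and Fos 1.14. Fosb averaged 0.0821 FPKM and rested on 2 to 13 fragments a library, so no comparison of it was carried by these depths. FPKM is scaled by length, so these levels can be set against each other.

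**Figure D1:**
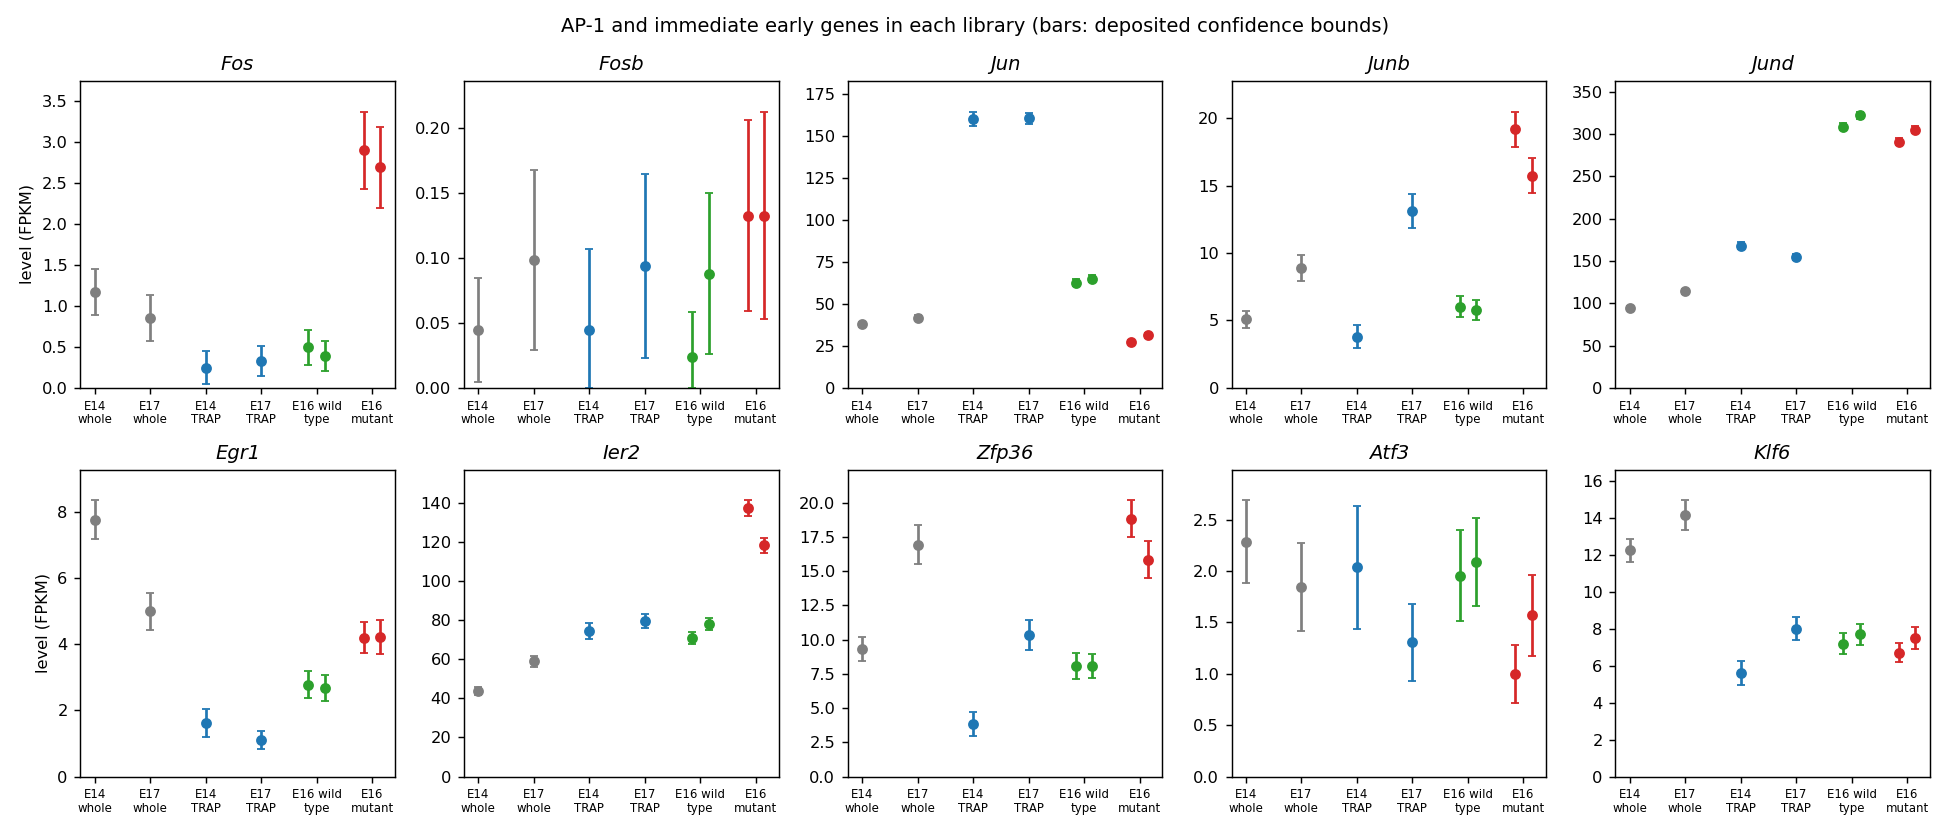
Level of each gene in FPKM (linear axes from 0) in each library, with points for single libraries and bars for the confidence bounds deposited by the authors. Jun stands at 160.2 and 160.3 FPKM in E14 and E17 TRAP and at 27.5 and 31.2 in the E16 mutant, while Fos, Junb and Ier2 are highest in the 2 mutant libraries and Zfp36 in mutant replicate 1, followed by E17 whole lung.

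Setting the Sox9 mutant against the wild type at E16 asks how mutating Sox9 alters the ribosome-bound mRNA of the tagged cells. Jun fell 2.18-fold, while its relative Junb rose 2.96-fold and its partner Fos 6.29-fold. Ier2, Zfp36 and Egr1 rose as well. Of the 10 genes, 9 passed the filter of a mean of at least 1 FPKM, and of these 5 rose, 1 fell and 3 did not pass limma's test with Benjamini-Hochberg adjustment at 0.05. Over all 11872 records tested 31.6% passed, 17.4% upward and 14.3% downward. The median log2 difference was 0.48 for the 9 genes and 0.0076 for all records. Fos passed the filter only through the mutant libraries and so had to differ. Without it, 4 of 8 genes rose and 1 fell, and their median log2 difference lay between those of Klf6 (-0.06) and Egr1 (0.48). After rescaling all libraries to equal totals, which moved the median of all records to 0.41, Fos alone of the 9 passed (1.67) and 232 records in place of 3755. The log2 differences of the other genes that had risen were then larger but no longer passed, at 1.83 for Junb, 1.43 for Zfp36, 1.22 for Ier2 and 0.83 for Egr1. Jun was at -0.65. The FPKM totals were 1631260 and 808402 in wild-type replicates 1 and 2, and 767845 and 906098 in the mutant ones. With records under 200 bases left out before rescaling, the same 6 genes passed as without rescaling, with Jun at -1.03 and Junb at 1.48.

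Jun, which encodes the founding member of the JUN family, measured 62.7 and 65.1 FPKM in the wild-type libraries, against 27.5 and 31.2 in the mutant ones. Both mutant libraries lay below both wild-type libraries. The means were 63.9 ± 1.67 and 29.4 ± 2.62 FPKM (SD, n = 2 each), a 2.18-fold decrease. The log2 difference of FPKM + 1 was -1.10 (SE 0.07, limma, adjusted p = 0.000294).

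Junb, whose protein shares the DNA-binding and zipper regions of JUN but is the weaker activator at many promoters, moved the other way. Wild-type levels of 6.03 and 5.76 FPKM stood against mutant levels of 19.2 and 15.7 FPKM. The groups did not overlap, with means of 5.90 ± 0.193 and 17.4 ± 2.44 FPKM (SD, n = 2 each), a 2.96-fold increase. The log2 difference was 1.41 (SE 0.10, limma, adjusted p = 0.000415).

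Fos, the founding member of the FOS family, was at 0.498 and 0.392 FPKM in wild-type libraries and at 2.90 and 2.69 FPKM in mutant libraries. These levels are low and rested on 22 and 19 fragments in the wild type and on 152 and 119 in the mutant. The means were 0.445 ± 0.0750 and 2.80 ± 0.148 FPKM (SD, n = 2 each), a 6.29-fold increase as FPKM. On the scale of FPKM + 1, which understates the change of so low a gene, the log2 difference was 1.39 (SE 0.11, limma, adjusted p = 0.000563). Fosb, its relative, measured 0.0241 and 0.0877 FPKM in the wild type and 0.132 in each mutant library. It rested on 2 and 8 against 13 and 11 fragments, and the bounds of both mutant libraries overlapped those of wild-type replicate 2.

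Jund, the member of the JUN family that most cells hold at a steady level, was the most abundant of the 10 at E16. The wild type gave 309 and 322 FPKM, the mutant 291 and 305. The mutant values lay below the wild-type values by a small margin, and the log2 difference of -0.08 did not pass (95% interval -0.21 to 0.05, limma, adjusted p = 0.276). After rescaling to equal totals its sign turned (0.38, not passed).

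**Figure D2:**
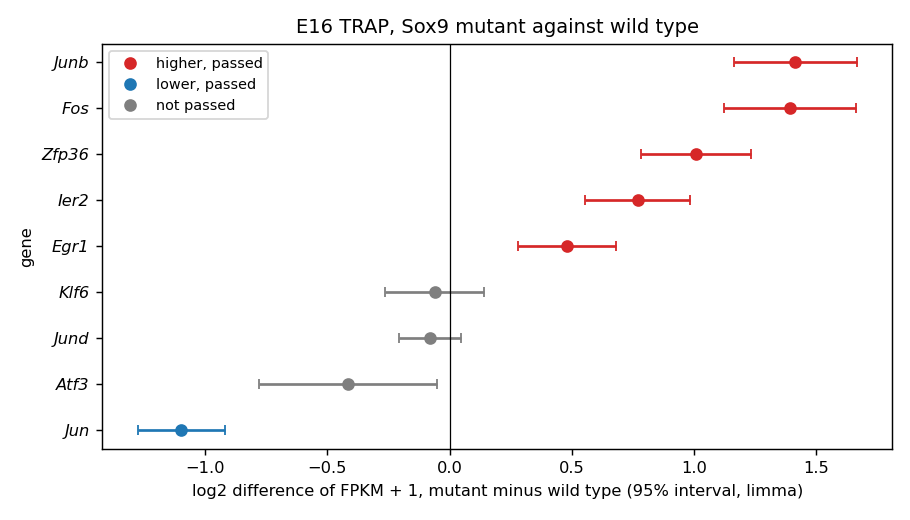
Log2 difference of FPKM + 1 between the E16 Sox9 mutant and wild type (x axis) for the 9 genes tested (y axis), with limma's 95% interval. Junb (1.41), Fos (1.39), Zfp36 (1.01), Ier2 (0.77) and Egr1 (0.48) lie above 0 and passed, Jun (-1.10) lies below 0 and passed, and Klf6, Jund and Atf3 did not pass.

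The promoters of Jun, Junb and Fos are shown because these 3 genes carry the opposite movement in the mutant. The windows are RefSeq's for GRCm38.p6 and run from 250 bases before to 50 bases after the annotated start, written 5′ to 3′ on the gene's strand. Jun lies at chr4:95052173-95052472 on the minus strand, Junb at chr8:84978699-84978998 on the minus strand, and Fos at chr12:85473640-85473939 on the plus strand. Capitals mark matches to any of the motifs named below.
Jun: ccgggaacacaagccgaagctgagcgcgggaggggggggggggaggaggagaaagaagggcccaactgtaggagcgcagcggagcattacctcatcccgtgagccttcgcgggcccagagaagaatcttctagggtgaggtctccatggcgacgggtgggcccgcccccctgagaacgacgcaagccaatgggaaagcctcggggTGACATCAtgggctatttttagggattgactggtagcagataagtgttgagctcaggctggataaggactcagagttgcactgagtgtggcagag
Junb: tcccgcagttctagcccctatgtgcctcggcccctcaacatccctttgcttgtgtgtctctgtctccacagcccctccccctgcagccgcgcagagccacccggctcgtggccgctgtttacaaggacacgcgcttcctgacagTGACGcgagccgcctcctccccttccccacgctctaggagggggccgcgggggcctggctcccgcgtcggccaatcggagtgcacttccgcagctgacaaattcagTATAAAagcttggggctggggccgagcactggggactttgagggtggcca
Fos: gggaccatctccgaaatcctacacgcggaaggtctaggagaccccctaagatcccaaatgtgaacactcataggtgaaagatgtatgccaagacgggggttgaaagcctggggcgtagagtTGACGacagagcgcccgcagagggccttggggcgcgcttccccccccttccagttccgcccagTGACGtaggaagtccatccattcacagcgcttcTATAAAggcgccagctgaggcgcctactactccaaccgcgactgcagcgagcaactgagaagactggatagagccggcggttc

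Of the 10 genes, 8 matched the promoter table by symbol, and Egr1 and Ier2 did not. Motifs were sought on both strands in each window. The variant TGACATCA, an 8-base element to which JUN and ATF2 are known to bind in the Jun promoter, stands from -45 to -38 in Jun, counted from the first transcribed base as 1. The same letters occur in Klf6, from -119 to -112, and in 3.62% of 32851 windows. The core TGACG, which is also part of the full cAMP response element TGACGTCA, stands at -129 and -66 in Fos and at -106 in Junb, and in 20.8% of windows. It also occurs in Fosb and, on the opposite strand, in Atf3. The full element TGACGTCA (1.79% of windows) and the AP-1 element TGAGTCA (5.2%) are in none of the 8 windows. TATAAA stands at -33 in Fos and at the annotated start itself in Junb, with 13.6% of windows holding it. A CArG box, the element bound by SRF, was found in Zfp36 (1.63% of windows), and the EGR element GCGGGGGCG in Zfp36 and Fosb (2.91%). These matches describe letters only, and sites outside these windows were not sought.

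Among the other immediate early genes, Ier2, which encodes a small nuclear protein, gave 70.7 and 78.1 FPKM without the mutation and 137 and 118 FPKM with it. Every mutant value exceeded every wild-type value, with a log2 difference of 0.77 (SE 0.09, limma, adjusted p = 0.00195). Zfp36 encodes tristetraprolin, which binds AU-rich elements and hastens the decay of mRNAs, those of several immediate early genes included. Its wild-type levels were 8.07 and 8.08 FPKM and its mutant levels 18.8 and 15.8 FPKM, again apart, and the log2 difference was 1.01 (SE 0.09, limma, adjusted p = 0.000917). Egr1, a zinc finger transcription factor gene that ERK signalling induces, was at 2.79 and 2.69 FPKM in wild-type libraries and at 4.20 and 4.22 in mutant ones. Its log2 difference was 0.48 (SE 0.08, limma, adjusted p = 0.00844), and without wild-type replicate 2 the adjusted p was 0.0545.

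The last pair of genes did not pass. Atf3, a leucine zipper gene induced by many stresses, went from 1.96 and 2.09 FPKM to 0.997 and 1.57 FPKM. Both mutant values were lower, and the log2 difference was -0.42 (limma, adjusted p = 0.0819). It passed without mutant replicate 2 (-0.60) and with each library centred on its median (-0.46). Klf6, a Krüppel-like zinc finger gene, measured 7.21 and 7.71 FPKM against 6.72 and 7.52 FPKM. These ranges overlapped, and the log2 difference of -0.06 (limma, adjusted p = 0.611) turned to 0.34 after rescaling to equal totals and to 0.010 without mutant replicate 1.

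The make-up of the JUN family differed between groups. Taking Jun, Junb and Jund together, the summed level was 378 and 393 FPKM in wild-type libraries, against 338 and 352 FPKM in mutant ones. Jun made up 16.6% of that sum in each wild-type library and 8.14% and 8.86% in the mutant. Junb made up 1.60% and 1.47% in the wild type and 5.67% and 4.46% in the mutant. Jund held the rest, 81.8% and 82.0% in the wild type and 86.2% and 86.7% in the mutant.

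**Figure D3:**
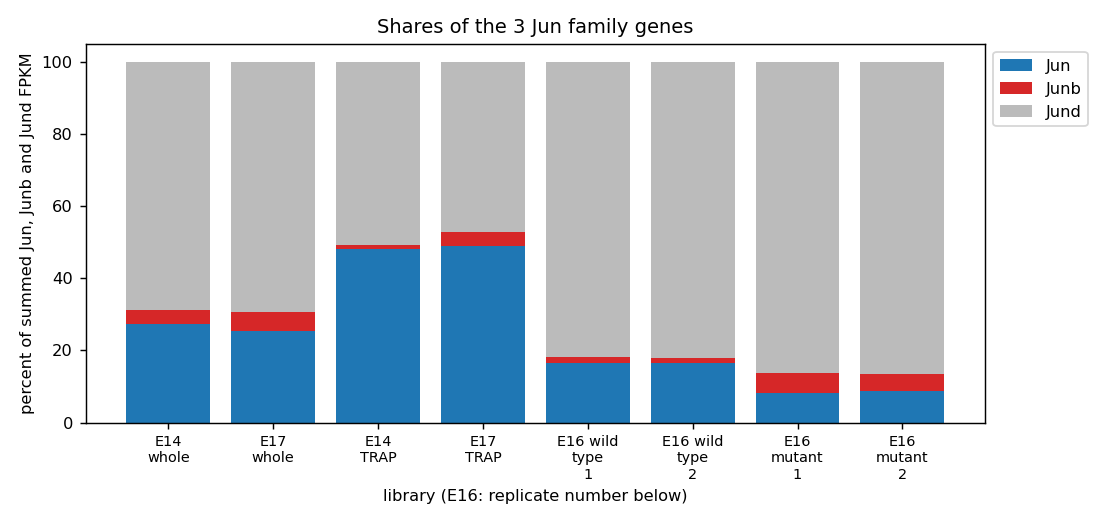
Share of Jun, Junb and Jund in their summed FPKM (y axis, percent) in each library (x axis). Jun holds 48.2% and 48.9% in E14 and E17 TRAP, 16.6% in both E16 wild-type libraries and 8.14% and 8.86% in the mutant, and the Junb share is largest in mutant replicate 1, at 5.67%.

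Set against its relatives within a library, Jun lost ground in the mutant in both pairings. Jun stood 10.4-fold and 11.3-fold above Junb in the wild type and 1.43-fold and 1.99-fold above it in the mutant. Against Fos it stood 126-fold and 166-fold higher in the wild type and 9.48-fold and 11.6-fold higher in the mutant. The log2 ratio of Jun to Junb was 3.23 ± 0.0774 in the wild type and 0.72 ± 0.316 in the mutant (SD, n = 2 each), a difference of -2.51. The log2 ratio of Jun to Fos was 5.49 ± 0.112 and 2.997 ± 0.181, a difference of -2.49 (both as FPKM + 1). With pseudocounts of 5 and 0.1 the latter difference was -1.52 and -3.54, since Fos is low. The two-sided exact permutation p was 0.333 for each ratio, which is the smallest that 2 against 2 libraries allow. Such ratios show unequal change of the members and do not depend on how a library was scaled, apart from the pseudocount.

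**Figure D4:**
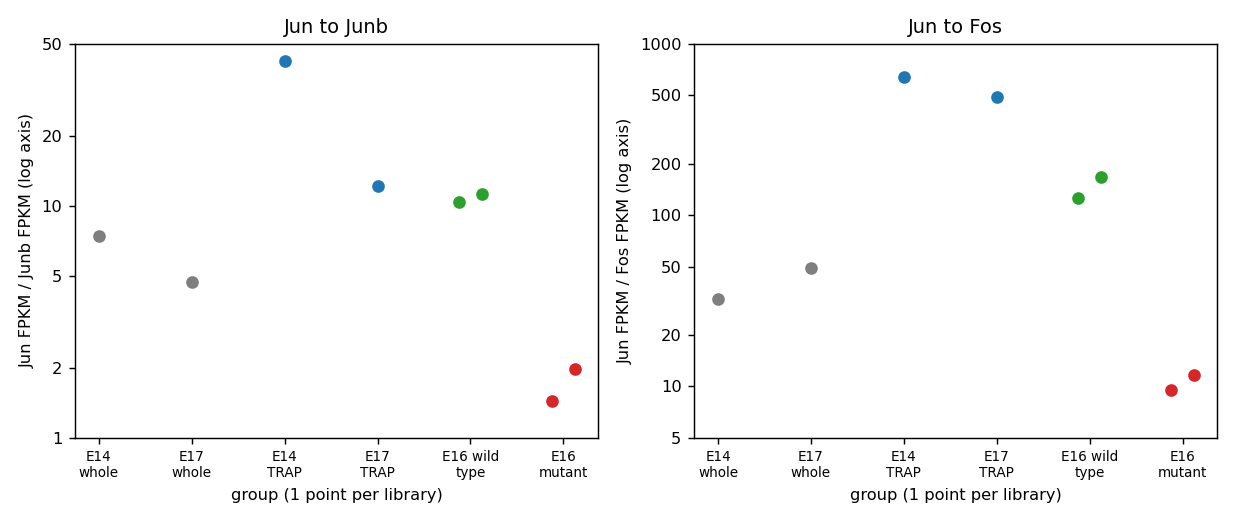
Ratio of Jun to Junb (left) and of Jun to Fos (right) in FPKM, on log axes, with 1 point per library. In both panels the mutant points are the lowest, at 1.43 and 1.99 for Junb and 9.48 and 11.6 for Fos, and E14 TRAP is the highest, at 42.4 and 643.

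Other members of the pathway were read from lists of known genes, against the 17.4% of all records that rose and 14.3% that fell. Of 8 tested members among 13 other AP-1 family genes, 4 rose and none fell in the mutant (median log2 0.29, against 0.0076 for all records). Jdp2, whose product represses AP-1 sites, rose from 13.4 and 14.2 to 32.7 and 33.4 FPKM (log2 1.20, limma, adjusted p = 0.000128). Maff, a small MAF protein gene, rose by 1.02, Batf, a leucine zipper partner of JUN proteins, by 1.04, and Mafk, named after its value was seen, by 0.57. Of 13 tested ATF and CREB relatives, Cebpb (0.22) and Atf6b (0.23) rose, Atf2 fell (-0.22) and 10 did not pass.

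Of 29 tested genes among 36 other immediate early genes, 12 rose, 4 fell and 13 did not pass (median 0.12). Gadd45b, a stress-induced regulator of MAP kinase signalling, rose from 12.6 and 14.5 to 40.8 and 38.3 FPKM (log2 1.48, limma, adjusted p = 0.000167). Rhob, a small GTPase gene, fell from 59.6 and 63.3 to 18.5 and 22.3 FPKM (log2 -1.55), and Gadd45g fell by 1.00 on the log2 scale. Thus relatives within 1 family, Gadd45b and Gadd45g, also moved apart. The others that fell were Sgk1 (-0.47), which passed the filter only through the wild type, and Zfp36l2 (-0.23), both named after their values were seen.

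Of 22 tested kinases and SRF or EGR cofactors, 7 rose and none fell (median 0.12). Nab2 (0.75) and Nab1 (0.63), corepressors of EGR proteins, and Rps6ka3 (0.58), a kinase downstream of ERK, led by p. Of 9 tested genes of FGF and ERK feedback, Etv4 (1.02), Spry1 (0.96) and, named after its value was seen, Dusp6 (0.53) rose, while Etv5 fell (-3.88). Among 14 tested textbook targets of AP-1, 6 rose, 2 fell and 6 did not pass (median 0.06), and Plaur, 1 of the 6 that rose, passed the filter only through the mutant. Krt8 (0.67) and Krt18 (0.75), keratins of simple epithelia, rose, whereas Vim, the mesenchymal filament gene, fell (-0.84), as did Timp1 (-0.89), named after its value was seen. Some lists share genes, so their counts are not independent. Krt8 and Krt18 are also epithelial markers here, Hmox1 is in the target and heat shock lists, and Srf in the immediate early and kinase lists. After rescaling to equal totals 1 gene of these lists still passed, Etv5, which fell, where 175 of 12014 records rose and 57 fell. The medians of the AP-1 family and immediate early lists stayed above that of all records by 0.25 and 0.13. With records under 200 bases left out before rescaling, 4 and 12 genes of those lists rose, and 0 and 3 fell. Over all 11845 records then tested, 2711 rose and 1259 fell.

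Signs of stress and of other cells were measured beside these rises. Of 12 tested heat shock and dissociation genes, Hspb1 (0.88) and Hmox1 (0.35) rose, Hspe1 fell (-0.33) and 9 did not pass. The 13 genes of that list summed to 2956 and 3025 FPKM in wild-type libraries and to 2923 and 2875 in the mutant. Abundant members outweigh scarce ones in that sum. Hspe1 had 618 and 584 against 464 and 491 FPKM, and Hspb1 9.31 and 13.8 against 22.1 and 21.4. The 10 leukocyte markers summed to 8.88 and 7.79 FPKM in wild-type libraries and 11.996 and 13.8 in mutant ones, with 1 of them listed at 0 in each wild-type library (Ptprc). Of the 2 leukocyte markers tested, Cd14 rose (0.93), although it was also higher in TRAP than in whole lung. The 10 endothelial markers summed to 71.0 and 88.0 against 59.3 and 45.6 FPKM. Of the 8 tested, Egfl7 (-0.63) and Esam (-0.87) were lower and 6 did not pass. The 10 mesenchymal markers summed to 113 and 153 against 73.8 and 141 FPKM, with Dcn higher (0.70), Foxf1 lower (-0.56) and 8 not passed. The 5 mesothelial markers summed to 7.47 and 10.03 against 17.3 and 17.5 FPKM. Of the 3 tested, Msln was higher (2.89) and 2 did not pass, with a median log2 difference of 0.10. The 8 smooth muscle and pericyte markers summed to 51.4 and 77.3 against 40.3 and 60.9 FPKM, and of the 6 tested 0 passed limma's test, 0 also at an unadjusted p under 0.05. The 6 erythroid markers summed to 309.5 and 307 against 250.6 and 257 FPKM. Of the 3 tested, Hba-a1 was lower (-0.72) and 2 did not pass. Of the 10 epithelial markers 8 rose and Nkx2-1 fell (-0.29), with sums of 2317 and 2289 against 2836 and 2738 FPKM. The part of these shifts in the movement of the immediate early genes was not tested.

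TRAP was set against whole lung to find the mRNAs that the pulldown holds above the organ at large. Jun was the gene of the 10 most enriched on the TRAP side, about as far above whole lung at E17 as at E14. Jund and Ier2 were higher in TRAP by a smaller margin. Egr1, Zfp36 and Klf6 were lower in TRAP, and Junb and Atf3 did not pass. In the joint fit of both stages 8 of the 10 genes passed the filter, of which 3 were higher and 3 lower, where 40.7% of 12320 records passed, 23.6% higher and 17.1% lower. With 1 library per fraction and stage, these p-values draw on the disagreement between the stages, at 1 residual degree of freedom. They draw as well on spread that limma pools over records of like level, at 4.47 prior degrees of freedom. With stage left out of the fit only Jun of the 10 passed, and 574 of 12320 records did.

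Jun had 160.2 FPKM in TRAP and 37.8 in whole lung at E14, then 160.3 and 41.8 at E17. The difference was thus 2.05 on the log2 scale at E14 and 1.91 at E17, and 1.98 in the joint fit (SE 0.10, limma, adjusted p = 0.000454). Jund was at 168 FPKM in TRAP and 94.8 in whole lung at E14, and at 155 and 114 at E17 (joint log2 0.63, limma, adjusted p = 0.0124). Ier2 gave 74.5 and 43.5 FPKM at the earlier stage and 79.6 and 59.0 at the later (joint log2 0.59, limma, adjusted p = 0.0128). For both, TRAP exceeded whole lung at each stage, but neither passed after rescaling to equal totals (0.24 and 0.21).

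Egr1 had 1.62 FPKM in E14 TRAP against 7.77 in whole lung, and 1.10 beside 5.01 at E17 (joint log2 -1.63, SE 0.17, limma, adjusted p = 0.00221). Zfp36 measured 3.84 FPKM in E14 TRAP with 9.34 in whole lung, and 10.3 with 16.9 at E17 (joint log2 -0.88, limma, adjusted p = 0.00964). Klf6 measured 5.61 FPKM beside 12.3 at E14 and 8.02 beside 14.2 at E17 (joint log2 -0.88, limma, adjusted p = 0.00653). For these 3 genes whole lung was higher at each stage, and the deposited bounds, which cover counting error only, did not overlap. The share of all records with bounds apart was not counted.

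Fos had 0.249 FPKM in E14 TRAP against 1.17 in whole lung, and 0.326 against 0.854 at E17. The TRAP values rested on 6 and 13 fragments. With a mean under 1 FPKM Fos was not among the genes tested, and with no filter its log2 difference was -0.64 (limma, adjusted p = 0.0408). Junb levels were 3.78 in TRAP and 5.07 in whole lung at E14, and 13.1 and 8.91 FPKM at E17, so TRAP was the lower library at E14 and the higher at E17 (joint log2 0.08, 95% interval -0.49 to 0.65, limma, adjusted p = 0.794, and -0.27 after rescaling to equal totals). Atf3 was at 2.04 and 2.28 FPKM at E14 and at 1.31 and 1.84 at E17, with overlapping bounds at both stages (joint log2 -0.21, 95% interval -0.69 to 0.27, limma, adjusted p = 0.418). Fosb had 0.0442 against 0.0445 and 0.0934 against 0.0982 FPKM, also within its bounds.

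**Figure D5:**
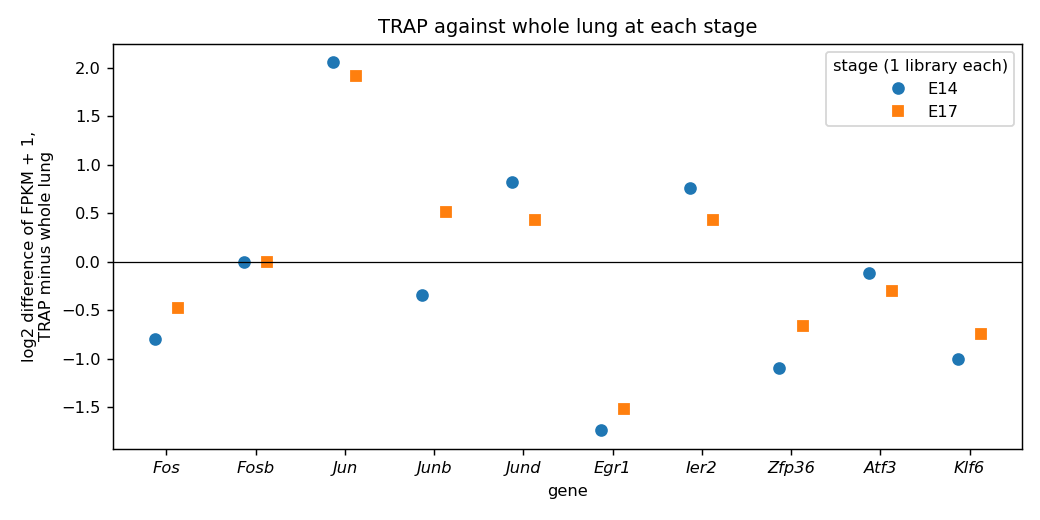
Log2 difference of FPKM + 1 between TRAP and whole lung (y axis) for each gene (x axis) at E14 (circles) and E17 (squares), with 1 library per fraction and stage. Jun lies highest at both stages, at 2.05 and 1.91, Egr1 lowest, at -1.74 and -1.52, and Junb changes side.

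Counted as single libraries with a 2-fold threshold on FPKM + 1, Jun was higher in TRAP at both stages, where 6.11% of records were higher at E14 and 4.85% at E17. Egr1, Zfp36 and Klf6 were at least 2-fold lower at E14 and Egr1 at E17, where 9.58% and 9.13% of records were lower. Markers of the other compartments were depleted in TRAP. The fit had all 10 endothelial and all 10 mesenchymal markers lower, with summed endothelial levels of 67.1 and 104 FPKM in TRAP against 342 and 623 in whole lung. Mesenchymal markers summed to 100.2 and 115 FPKM against 1115 and 1378, and leukocyte markers to 12.4 and 27.9 against 69.9 and 132. The part of these cell types in the level of Egr1, Zfp36, Klf6 and Fos in whole lung was not tested.

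Of 29 other immediate early genes tested, 5 were higher and 7 lower in TRAP, a share near the 40.7% called over all records (median log2 -0.16, against 0.05 for all records). Klf2, a Krüppel-like gene of endothelium, had 1.70 and 2.93 FPKM in TRAP against 9.97 and 19.4 in whole lung (log2 -2.20). Zfp36l1, a relative of Zfp36, was lower in TRAP (-0.93), as was Sgk1 (-1.86). The 5 that were higher, named after their values were seen, were Trib1 (0.95), Errfi1 (0.69), Gadd45g (0.64), Btg2 (0.53) and Btg1 (0.38). Of 9 other AP-1 family genes tested, Fosl2 was higher (0.83) and Jdp2 lower (-0.82). Among 13 ATF and CREB relatives Atf5 was higher (1.04), and Cebpd (-2.21), Ddit3 (-0.88) and, named after its value was seen, Creb1 (-0.45) were lower. Of 22 kinases and cofactors 2 were higher, Map2k2 (0.87) and Map2k3 (0.45), and 7 lower, led by Elk3 (-1.68), an SRF partner. Of 11 genes of FGF and ERK feedback 4 were higher, Etv5 (1.84) and, named after their values were seen, Spry2 (1.04), Etv4 (0.83) and Spry1 (0.69), and 2 lower, Etv1 (-2.34) and Spry4 (-1.79). Both of the latter averaged under 1 FPKM in TRAP and passed the filter only through whole lung, so they had to differ. Of 18 textbook targets of AP-1 4 were higher and 8 lower, 2 of the 8 tested only through whole lung, with Mmp2 (-3.22), Timp1 (-1.91) and Plaur (-2.14) leading by p. Among the higher targets, named after their values were seen, were Krt8 (1.82), Krt18 (1.80) and Areg (1.31). Of 13 heat shock genes 4 were higher and 2 lower, among them Hspe1 (0.69), Hspb1 (-1.51) and Hmox1 (-1.57). After rescaling to equal totals none of the immediate early list and none of the kinases was higher in TRAP by limma, and 10 and 8 were lower. Over all 12387 records then tested, 546 were higher and 2921 lower, with a median log2 difference of -0.30.

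Between E14 and E17 Junb and Zfp36 rose, and the abundant Jun differed by less than its deposited bounds in TRAP. In the joint fit of both fractions, 2 of 8 genes tested rose and none fell by limma with Benjamini-Hochberg adjustment, where 15.9% of 12320 records passed, 9.51% upward and 6.36% downward. The p-values here draw on the disagreement between TRAP and whole lung and, as in the fraction comparison, on spread pooled over records.

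Junb rose from 3.78 to 13.1 FPKM in TRAP and from 5.07 to 8.91 in whole lung (joint log2 1.13, SE 0.23, limma, adjusted p = 0.0331). Zfp36 rose from 3.84 to 10.3 FPKM in TRAP and from 9.34 to 16.9 in whole lung (joint log2 1.01, SE 0.16, limma, adjusted p = 0.0208). Both were at least 2-fold higher in TRAP as single libraries, where 4.75% of records were and 1.91% at least 2-fold lower. None of the 10 reached 2-fold in whole lung, where 4.83% of records were higher and 1.3% lower. Neither call held with no filter on low values, where limma's adjusted p was 0.116 for Junb and 0.0887 for Zfp36, or with the fraction left out of the fit. In those 2 fits 52 of 18365 and 0 of 12320 records passed. Jun had 160.2 and 160.3 FPKM in TRAP, and 37.8 and 41.8 in whole lung (joint log2 0.07, 95% interval -0.17 to 0.31, limma, adjusted p = 0.637, and -0.20 after rescaling to equal totals). Its bounds overlapped in TRAP and not in whole lung.

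Egr1 went from 1.62 to 1.10 FPKM in TRAP and from 7.77 to 5.01 in whole lung, lower in each fraction, but did not pass (joint log2 -0.43, limma, adjusted p = 0.144). Klf6 (0.32), Ier2 (0.26), Jund (0.07) and Atf3 (-0.30) did not pass either, with adjusted p by limma from 0.166 to 0.714. Fos, below the filter, went from 0.249 to 0.326 FPKM in TRAP and from 1.17 to 0.854 in whole lung, within its bounds in each.

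The pathway lists were read against the 9.51% of all records that rose with stage and the 6.36% that fell. Of 29 other immediate early genes 10 rose and none fell (median log2 0.35, against 0.0070 for all records), with Gadd45b (2.52), Gadd45g (1.72) and Ier3 (1.45) the largest. Of 9 other AP-1 family genes Jdp2 (1.25), Maff (1.18) and Fosl2 (0.92) rose and none fell. Of 13 ATF and CREB relatives Cebpb (1.80), Atf5 (0.65), Cebpd (0.60) and Atf4 (0.38) rose. Of 18 textbook AP-1 targets 5 rose, Areg (3.20) the most, and Timp1 fell (-0.55). Of those 5, Areg and Fgf7 passed the filter only through E17. Of 22 kinases and cofactors Nab1 (0.88), Nab2 (0.87) and Mapk3 (0.48) rose and Map2k6 fell (-0.67), and of 11 FGF and ERK feedback genes Spry1 rose (0.94), shares near those over all records. Of 13 heat shock genes 6 fell and Hspb1 (0.91) and Bag3 (0.70) rose. These genes were named after their values were seen, and all calls are by limma over both fractions. After rescaling to equal totals 511 of 12387 records rose and 613 fell. Of the 29 immediate early genes 4 still rose (Ier3, Klf4, Gadd45b and Gadd45g), with Jdp2, Maff and Cebpb. In the kinase list only Map2k6 then passed, lower at E17. Beside them, 7 of 10 endothelial markers and 3 of 9 leukocyte markers tested were higher at E17, and their part in these results was not tested.

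The E16 wild type did not lie between the flanking stages for every gene. Jun was 62.7 and 65.1 FPKM at E16 against 160.2 at E14 and 160.3 at E17 in TRAP, while Jund was 309 and 322 against 168 and 155. Thus Jund stood 4.93-fold and 4.95-fold above Jun at E16, but the 2 genes were within 1.05-fold of each other in E14 TRAP. Egr1, at 2.79 and 2.69 FPKM, was also above both flanking TRAP libraries, at 1.62 and 1.10. Fos, at 0.498 and 0.392 against 0.249 and 0.326, rested on 22 and 19 against 6 and 13 fragments, and its bounds overlapped. Junb, Zfp36 and Klf6 lay between the flanking values. The E16 libraries have titles of another form, and their erythroid markers summed to 250.6 to 309.5 FPKM against 3359 and 3191 in E14 and E17 TRAP. Stage and library set therefore cannot be told apart, and no test was made.

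The records whose profiles over the 8 libraries were nearest to those of Jun, Junb and Fos were sought among 8869 records that averaged 5 FPKM or more. Records named Gm with a number, or with a name ending in Rik, were passed over. Nearness was the root mean square distance between log2(FPKM + 1) profiles after the mean of each was taken off. Of the records left, Sox9 was nearest to Jun, at 0.22 log2 units. Sox9 had 63.9 and 68.5 FPKM in E14 and E17 TRAP, 14.98 and 16.7 in whole lung, 35.9 and 36.4 in the E16 wild type and 12.8 and 11.03 in the mutant. Like Jun, it was highest in E14 and E17 TRAP, intermediate in the E16 wild type, and low in whole lung and the mutant. Sh3bgrl2 (0.31) and Mical1 (0.31) came next. Junb was nearest to Lcp1 (0.13), Atoh8 (0.17) and Ppfibp2 (0.20), and Fos to Pgrmc2 (0.14), Chchd7 (0.14) and Peli1 (0.22). Each of these 6 was highest in the 2 mutant libraries. Fos averaged 1.14 FPKM, so FPKM + 1 compresses its changes, and its distances depend on the pseudocount. A distance over 8 libraries of few groups describes a shared order and carries no test.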

How the data were processed

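RNA-seq of 8 embryonic lung libraries was analysed, with groups taken from the sample titles. The authors deposited 1 table per library with FPKM values and their lower and upper confidence bounds, per the file headers. The submitters' processing notes name TopHat2 2.0.14, Bowtie2 2.2.3, Cufflinks 2.2.1, Cuffnorm and the build mm10. The annotation, strand handling and library totals of that step are not given in the sources used here. Values were used as deposited, with 1 added to the deposited starts.

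Reading upper bound minus FPKM as 2 standard errors, the fragments behind a value were taken as (FPKM / standard error) squared. Between 60.4% and 62.2% of values under 20 fragments came out whole within 0.02. For the 10 genes, fragments per FPKM followed 1 factor per library within 0.04 log2. Bounds and fragments cover counting error only.

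Tests used log2(FPKM + 1) in limma 3.58.1 under R 4.3.3, a scale that compresses differences at low levels. A record was tested if it averaged 1 FPKM or more over the libraries of a fit. The eBayes step had a trend, and two-sided p-values were adjusted by Benjamini-Hochberg over all records. The mutant fit used the 4 E16 libraries (2 residual degrees of freedom), and the fraction and stage fit the other 4 (1 residual degree), with both terms. The eBayes step added 3.73 and 4.47 prior degrees of freedom to these fits. Between single libraries no test was made. Alternatives were the pseudocount, filter, scaling, trend, limma-voom on the inferred fragments, each E16 library left out, a replicate block, and the other term left out. The scripts were tested on simulated data. The E16 replicates differed by more than counting error (mean squared difference 4.90 and 6.23 in its units over 11703 records) and were kept as separate samples.

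The members and lists were chosen with earlier results of these data known. The rule named all 10 genes, the 3 of each list with the smallest p in the mutant and fraction fits, and the 3 records nearest in profile to Jun, Junb and Fos. For the profiles, records named Gm with a number or ending in Rik were passed over. Some genes of the lists are not reported here. The counts of list genes under rescaling were added after seeing the data.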

Additional observations from a re-analysis of the deposited data

Results flagged for a closer look

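Junb was lower in TRAP than in whole lung at E14 (log2 difference -0.35, with overlapping bounds) and higher at E17 (0.51, with bounds apart), so the stages moved in opposite directions. Fos changed by 0.086 from E14 to E17 in TRAP and by -0.23 in whole lung, within its bounds in each. Jund changed by -0.12 in TRAP and by 0.27 in whole lung, with bounds apart in each. None of these 3 differences was tested, since each value compares single libraries.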

How the results depend on the processing

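In the mutant comparison 6 genes were called, and 13 of 14 alternatives gave 4 to 7. With libraries rescaled to equal totals the count was 1 (Fos), and the median over all records became 0.41 (-0.30 for TRAP, -0.23 for stage). There Jun was at -0.65, and Jund (0.38) and Klf6 (0.34) turned sign, as did Klf6 with records under 200 bases left out before rescaling (0.0028). Leaving out 1 E16 library each time gave 5 to 7 calls, a range of -0.13 to 0.010 for Klf6, and ranges of -2.73 to -2.29 for the Jun to Junb and -2.62 to -2.36 for the Jun to Fos ratio. All records called fell from 3755 to 2208 and 1888 without wild-type replicate 1 and 2. With a replicate block 6 were called; replicate numbers did not pair the samples (r = 0.0072 over 11872 records). Among all calls the higher share was 54.9%, and 75.4% rescaled, 68.3% with short records left out and 42.8% centred. For TRAP 6 genes were called, and 1 with no stage term; Junb turned to -0.27 when rescaled. The higher share there was 58.0%, and 15.7% rescaled. For stage 2 genes were called, 1 with a pseudocount of 5, when rescaled, or without a trend. With no filter or no fraction term 0 were called by limma. Over all records 52 of 18365 and 0 of 12320 then passed at the same adjusted threshold, against 1955 of 12320 in the main fit. Before adjustment, 4583 and 684 records had a p under 0.05 by limma. Rescaled, Jun (-0.20), Jund (-0.20) and Ier2 (-0.011) turned sign, and with short records left out Jun (-0.0026) and Jund (-0.0026) did. The higher share for stage was 59.9%, 45.5% rescaled and 45.1% with short records left out. The cause of these changes was not tested. Fosb, Atf3, and Fos outside the mutant, rest on few fragments.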
